A study of Mus musculus with 4 samples.

Results

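The regions described here are stretches of DNA far from any protein-coding gene in which cytosines of the CHH context (H being A, C or T) carried less methylation in the Nsd1 conditional knockout than in the control. They were chosen from the authors' deposited table of regions that differ between the groups. A region was taken if it lay on autosomes 1 to 19, was of the CHH context, was lower in the knockout, had a control level below 10% and lay more than 100 kb from the nearest RefSeq protein-coding gene of mm10. This rule took 11839 of the 101350 listed regions, or 27.6% of the 42877 autosomal CHH losses with a control level below 10%. The others lay inside protein-coding genes (10548) or within 100 kb of one (20490). Because the rule used the levels, the direction and the distance, these are given as description with no test.

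Whole-genome bisulfite sequencing was applied to somatosensory cortex from mice aged 2.5 months. The knockout has the genotype Nsd1Nex-cKO (cKO, 2 libraries) and the control Nsd1fl/+ (Ctrl, 2 libraries), so the control too carries a floxed allele. Nex (Neurod6) drives recombination in excitatory neurons of the cortex. The DNA came from dissected tissue, which also holds interneurons, glia and vessel cells in which the driver does not act. A lower mean therefore cannot tell fewer methylated cells from less methylation per cell. The labels do not say whether the control carries the driver or whether each library is a separate mouse. The table gives 1 mean per group and no value per library, and therefore neither the spread between libraries nor the depth behind a value is known. Cell type markers were not analysed here.

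As background, NSD1 is an enzyme that dimethylates H3K36, a histone mark found broadly between genes. The DNA methyltransferase DNMT3A carries a domain that recognises this mark, and in neurons it adds methyl groups outside the CG context after birth, mostly at CA. Gene deserts are long stretches without protein-coding genes. Many of them lie beside genes for developmental transcription factors and hold their distant enhancers, and others lie beside genes for neuronal adhesion molecules.

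Sequence was at hand only for windows of 300 bases around the starts of RefSeq genes, here those of genes that do not code for protein. In all, 23 of the regions touched such a window, and the 5 shown lay wholly inside one. They are shown because their letters can be set against the table; they were chosen after their values were seen. The sequences come from RefSeq (build GRCm38.p6, which is mm10) and run 5′ to 3′ on the strand of the gene. Capitals mark the listed region.
A530006G24Rik, chr2:147710443-147710742, + strand: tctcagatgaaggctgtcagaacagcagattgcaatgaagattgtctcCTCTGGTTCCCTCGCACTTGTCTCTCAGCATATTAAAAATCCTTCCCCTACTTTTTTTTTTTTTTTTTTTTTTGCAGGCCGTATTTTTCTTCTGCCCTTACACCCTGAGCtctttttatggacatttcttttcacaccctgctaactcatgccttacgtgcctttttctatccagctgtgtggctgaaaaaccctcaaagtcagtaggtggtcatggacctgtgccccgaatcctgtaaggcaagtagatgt
Gm2447, chr3:52739474-52739773, + strand: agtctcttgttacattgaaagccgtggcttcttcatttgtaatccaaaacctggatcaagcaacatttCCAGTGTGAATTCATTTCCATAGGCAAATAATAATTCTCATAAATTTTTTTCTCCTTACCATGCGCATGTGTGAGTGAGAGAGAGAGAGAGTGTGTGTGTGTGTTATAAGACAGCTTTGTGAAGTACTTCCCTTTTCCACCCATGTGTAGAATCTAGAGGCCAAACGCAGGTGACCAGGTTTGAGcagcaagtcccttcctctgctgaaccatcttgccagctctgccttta
Gm31278, chr8:116271399-116271698, - strand: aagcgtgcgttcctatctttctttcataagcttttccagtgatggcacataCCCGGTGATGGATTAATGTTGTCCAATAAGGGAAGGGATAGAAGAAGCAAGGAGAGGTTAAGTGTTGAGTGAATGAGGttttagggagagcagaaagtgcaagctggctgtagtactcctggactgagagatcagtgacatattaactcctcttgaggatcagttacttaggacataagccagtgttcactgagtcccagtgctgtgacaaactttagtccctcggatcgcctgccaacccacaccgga
Gm31816, chr9:47362708-47363007, - strand: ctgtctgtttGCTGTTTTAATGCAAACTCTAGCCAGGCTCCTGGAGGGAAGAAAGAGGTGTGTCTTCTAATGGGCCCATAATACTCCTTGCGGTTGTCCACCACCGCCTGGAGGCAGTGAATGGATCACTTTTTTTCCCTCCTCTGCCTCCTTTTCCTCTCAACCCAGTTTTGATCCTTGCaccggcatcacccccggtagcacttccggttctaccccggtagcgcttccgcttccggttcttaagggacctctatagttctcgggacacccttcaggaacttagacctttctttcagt
Gm39467, chr11:113134183-113134482, - strand: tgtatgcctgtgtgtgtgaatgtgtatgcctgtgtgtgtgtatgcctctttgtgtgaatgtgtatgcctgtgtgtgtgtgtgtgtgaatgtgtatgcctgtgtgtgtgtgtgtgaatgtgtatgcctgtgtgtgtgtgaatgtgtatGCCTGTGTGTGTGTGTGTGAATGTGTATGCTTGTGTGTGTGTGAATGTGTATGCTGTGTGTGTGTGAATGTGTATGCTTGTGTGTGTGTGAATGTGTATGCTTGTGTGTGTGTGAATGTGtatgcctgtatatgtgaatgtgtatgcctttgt

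The CHH cytosines counted in the capitals, on both strands, equalled the number given in the authors' deposited table in all 5 regions. They were 29 for A530006G24Rik, 65 for Gm2447, 31 for Gm31278, 66 for Gm31816 and 49 for Gm39467. In these 5 regions the number of cytosines thus equals the full count of CHH positions on both strands. Whether that number depends on the reads is not known, since coverage is not given.

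Methylation in the A530006G24Rik region had a mean of 4.16% in Ctrl and 0.291% in cKO. In the Gm2447 region the means were 8.77% and 2.80%, in the Gm31278 region 4.77% and 0.965%, in the Gm31816 region 6.44% and 1.39%, and in the Gm39467 region 5.85% and 0.491%. The sequences differ widely in the triplet CAC, the context most methylated outside CG in neurons. It made up 65.3% of the CHH cytosines (32 of 49) of the Gm39467 region, a run of TG repeats with 0 CpGs. In the Gm2447 region it made up 23.1%, in the Gm31816 region 10.6%, in the Gm31278 region 9.68% and in the A530006G24Rik region 6.90%. Over all 31365 autosomal windows of 300 bases, taken at genes of any kind, the median share was 9.82%, with both strands counted. These windows are longer than the 5 regions and are not a matched background. The G and C content of the 5 regions ranged from 40.0% in A530006G24Rik to 50.3% in Gm31816, and the median of all windows was 53.0%. Each of the 5 held 2 CpGs or fewer.

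Methylation in the desert regions was low in the control and lower still in the knockout. The median level was 5.44% in Ctrl (quartiles 4.49% and 6.62%) and 0.968% in cKO (quartiles 0.648% and 1.43%). The cKO level was thus 18.2% of the Ctrl level at the median (quartiles 13.6% and 23.3%). In the authors' deposited table the median difference was -4.39 points, with a range from -9.57 to -2.01. The highest cKO level of any of the regions was 4.67%. The CHH losses inside genes had medians of 5.60% and 1.07%, and those within 100 kb of genes 5.38% and 0.964%, both chosen with the same ceiling on the control. The medians of the desert regions lay between these.

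The levels of both groups varied together across the desert regions. Regions with a Ctrl level of 2% to 4% (1607 of them) had a median of 0.451% in cKO, those of 4% to 6% (5883) 0.858%, those of 6% to 8% (3307) 1.46% and those of 8% to 10% (1042) 2.15%. Over the 11839 regions Spearman's rho was 0.763, a description over regions that share the same libraries and were listed for their difference. The smallest difference was -2.01 points, so a low Ctrl level left room only for a low cKO level. Part of this trend is thus fixed by the selection. Longer regions were more common at higher levels, with a median length of 85.0 bp in the lowest of these classes and 164.5 bp in the highest.

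**Figure D1:**
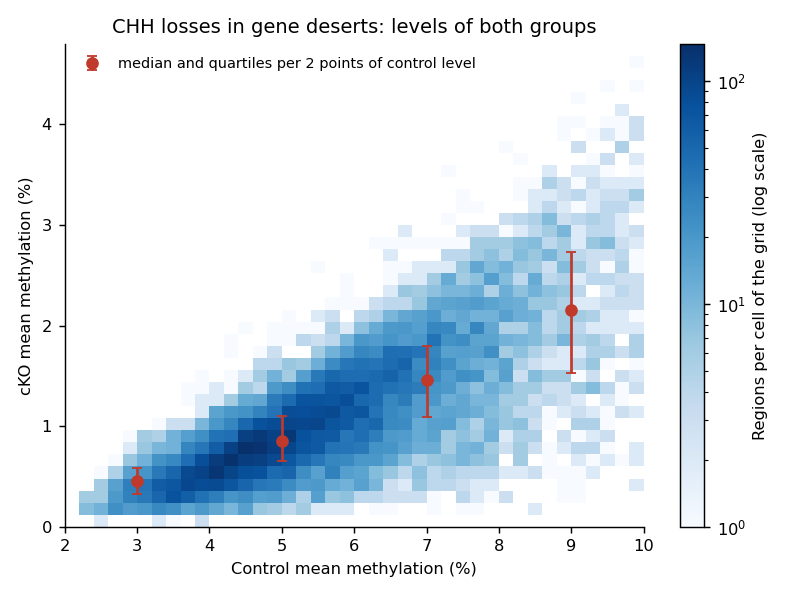
Mean methylation of each of the 11839 desert regions in control (x axis, percent) and cKO (y axis, percent); the shade is the number of regions on a log scale. Red points are medians and bars quartiles for each 2 points of control level, which go from 0.451% to 2.15% in cKO.

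Mitochondrial DNA was also lower in cKO. Its 4 listed CHH regions were long, at 263 to 7044 bp, and together covered 0.0140 Mb. Over their 3967 cytosines the cytosine-weighted means were 6.52% in Ctrl and 0.510% in cKO. Of the desert regions, 1527 (12.9%) showed a loss beyond the mitochondrial median, which was -5.87 points in the authors' deposited table. Their cKO level was below the mitochondrial median of 0.488% in 1658 (14.0%). The share of cytosines converted by bisulfite is not given in the sources used here, and its part in the levels was not tested. At the targeted gene, the 5 CHH regions inside Nsd1 (chromosome 13, 55209782 to 55318325) were all higher in cKO, at 4.77% to 7.90% against 0.405% to 0.834% in Ctrl. Such gains were common inside genes (7723 over all autosomes), and these levels do not test whether Nsd1 was deleted.

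Gains of CHH methylation were few in the deserts. Of the 12485 CHH regions listed more than 100 kb from a gene, 98.3% were lower in cKO, and over all 52991 autosomal CHH regions 84.1% were. These shares count listed regions of both directions and are description with no test. For the regions described here, the rule fixed the direction. Median levels of the 218 desert gains were 1.42% in Ctrl and 6.39% in cKO. The 428 desert losses at or over the ceiling of 10% had a median of 11.1% in Ctrl and 3.11% in cKO.

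The regions were short. Their median length was 121 bp (quartiles 84.0 and 174, range 51.0 to 815), with a median of 43.0 CHH cytosines (range 6 to 307). CHH losses inside genes had medians of 128 bp and 46.0 cytosines, and those within 100 kb 127 bp and 46.0. Per 100 bp the desert regions held a median of 36 CHH cytosines, and both other classes 36.6. Together the desert regions covered 1.60 Mb and 566347 cytosines, spread over all 19 autosomes.

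Density was lower farther from genes. From 100 to 200 kb of a gene there were 25.9 such regions per Mb (5159 regions), from 200 to 500 kb 19.4 (4997), from 500 kb to 1 Mb 9.51 (1296) and beyond 1 Mb 5.88 (387). The density of CHH losses was 28.7 per Mb both from 10 to 50 kb and from 50 to 100 kb, 22.7 within 10 kb and 10.7 inside genes. Beyond 100 kb as a whole it was 18 per Mb, and over all autosomes 17.8. Losses in the CG context, where most methylation of the genome lies, showed the same order, from 24.4 per Mb at 100 to 200 kb to 3.19 beyond 1 Mb. The levels changed little over the same distances. The median Ctrl level was 5.46% at 100 to 200 kb, 5.49% at 200 to 500 kb, 5.31% at 500 kb to 1 Mb and 5.02% beyond 1 Mb, with cKO medians of 0.991%, 0.985%, 0.862% and 0.770%. These densities count regions per base of assembly, gaps included, and coverage, base composition and repeats were not analysed here. Sequence farthest from genes lies only in long deserts, so distance was not separated from desert size, which is described below.

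**Figure D2:**
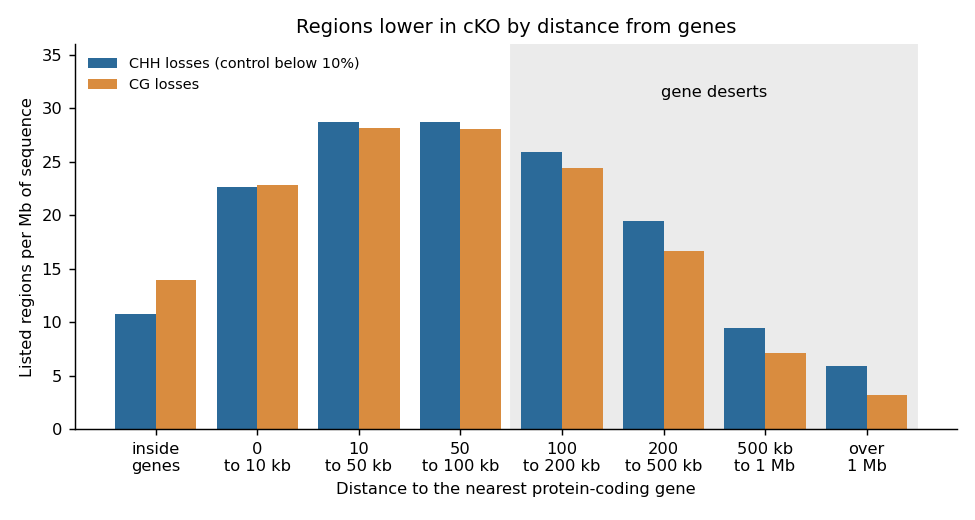
Listed regions lower in cKO per Mb of autosomal sequence (y axis) by distance to the nearest protein-coding gene (x axis), for CHH losses with a control below 10% and for CG losses. Within the shaded desert classes CHH losses go from 25.9 to 5.88 per Mb and CG losses from 24.4 to 3.19.

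The median distance of the regions from a gene was 225 kb (quartiles 148 and 370). The farthest lay 2242 kb from any gene, in the desert between Celf4, an RNA-binding protein, and Pik3c3, a lipid kinase (chromosome 18, 28023772 to 28023865, 47 cytosines). Its means were 3.42% in Ctrl and 0.319% in cKO. The second farthest, at 2209 kb in the same desert, had 6.61% and 1.95%. The next were both in the desert between Olfm4 and Pcdh17, at 2191 kb (5.75% and 0.651%) and 2110 kb (4.69% and 0.695%). The fifth lay between Cntnap5b and Cdh20 at 2108 kb (6% and 1.04%). CHH losses of the usual size thus occurred in the middle of the longest deserts, though rarely.

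Autosomal sequence more than 100 kb from protein-coding genes fell into 1395 deserts with 658 Mb in all. Of these, 1063 held at least 1 of the regions and 332 held 0. The regions were unevenly shared. The 140 deserts with the most regions held 45.9% of them on 23.2% of the desert sequence. Short deserts were richer. Those of up to 0.1 Mb held 33.0 regions per Mb, those of 0.1 to 0.5 Mb 28.9, of 0.5 to 1 Mb 22.4, of 1 to 2 Mb 14.3 and of over 2 Mb 6.94. Chromosome 7 had the highest density, with 30.9 per Mb of desert, and chromosome 3 the lowest with 12.2, while the median Ctrl level per chromosome stayed between 5.22% (chromosome 17) and 5.66% (chromosome 9).

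Deserts are named by the genes on either side. The desert with the most regions lies between Auts2, a gene linked to neurodevelopment, and Castor2, a regulator of the mTORC1 pathway. It held 103 regions in 1.36 Mb (chromosome 5, 132643221 to 133999747), or 75.9 per Mb. Their Ctrl levels ran from 3.23% to 9.46%, with medians of 5.89% in Ctrl and 1.05% in cKO. The desert from Tbc1d22a to Tafa5 (chromosome 15) held 93 in 0.846 Mb, and its neighbour from Tafa5 to Zdhhc25 held 72 in 0.641 Mb. Tafa5 encodes a secreted, brain-enriched protein of the chemokine-like TAFA family, and regions lay thickly on both its sides at 110 and 112 per Mb.

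Transcription factors of the spalt family bordered 2 more of these deserts. Between Sall1, a zinc finger factor of kidney and microglia, and Tox3 lay 87 regions in 1003 kb, with medians of 5.85% in Ctrl and 1.17% in cKO. Between Sall3 and Galr1, a galanin receptor, lay 84 regions in 1.21 Mb, with 5.66% and 1.08%. The desert from Cdh26 to 4930591A17Rik held 82, the one from Mki67, a proliferation marker, to Mgmt, a DNA repair enzyme, held 82, and the one from Gm33989 to Vstm2b 80. The deserts from Zfp608 to Gramd3 (73) and from Gm4868 to Tmem132c (67) completed the first 10. The median Ctrl level in these 10 ranged from 4.77% in the last to 6.14% between Mki67 and Mgmt, and the cKO median from 0.723% next to Vstm2b to 1.44% between Mki67 and Mgmt.

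**Figure D3:**
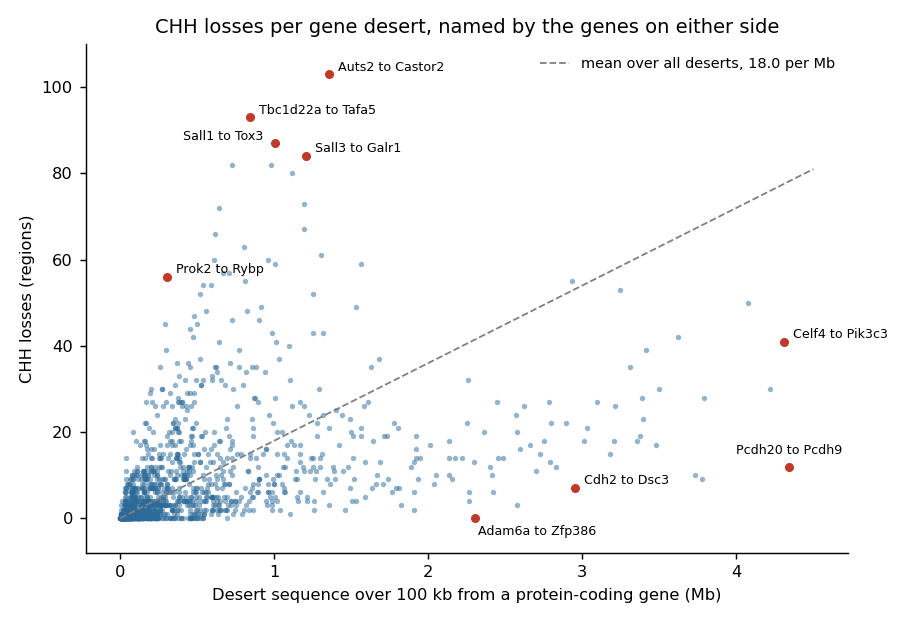
Number of CHH losses (y axis) against Mb of sequence over 100 kb from a gene (x axis) for each of the 1395 deserts; red points are named by their flanking genes and the dashed line is the mean of 18 per Mb. Deserts of about 1 Mb reach 103 regions, while 60 of the 61 deserts of over 2 Mb lie below the line.

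By density among deserts with at least 10 regions, those at the top were small. The desert from Rab11fip4 to Utp6 held 11 regions in 35.9 kb (306 per Mb). Rybp, a subunit of Polycomb repressive complexes, had rich deserts on both sides. The one from Rybp to Shq1 held 20 regions in 84.5 kb (237 per Mb), and the one from Prok2 to Rybp held 56 in 302 kb (185 per Mb). The desert from Lnx1 to Chic2 held 18 in 102 kb (177 per Mb).

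At the other end, several deserts of over 1 Mb were nearly free of the regions; they were picked out after their values were seen. The only one of that size with 0 lay between Adam6a and Zfp386 (chromosome 12, 2.30 Mb), within the immunoglobulin heavy chain locus, whose V segments are not counted as protein-coding genes; it also held 0 CG losses. Between Cox7c and Edil3 3 regions lay in 2.57 Mb, and between Pom121l12 and Vstm2a 2 lay in 1.46 Mb. The desert between the protocadherin genes Pcdh20 and Pcdh9, the longest of all with 4.34 Mb, held 12.

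Antigen receptor loci lie partly in deserts, since their segments are not counted as protein-coding genes, and they differed in how many of the regions they held. The Igk locus (chromosome 6, 3.17 Mb) held 21 of the regions, at 2.63% to 8.06% in Ctrl and 0.171% to 2.50% in cKO. The Tcra locus (chromosome 14, 1.80 Mb) held 23, at 3.27% to 9.94% in Ctrl and 0.103% to 2.51% in cKO. Tcrb held 1 of the regions among 8 CHH losses of any distance, and Igh 0 among 2 in 2.75 Mb. Tcrg and Igl held 0. CG losses numbered 20 in Tcra, 3 in Igk and 0 in Igh.

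Where flanking genes belong to 5 lists, density differed between the lists. Deserts beside developmental transcription factors were richer in these regions than deserts at large, and those beside each of the other lists were poorer. The lists were chosen with earlier results of these data known, so these contrasts are description only. These densities are not matched for desert size, which is taken up in the next paragraph. Of 97 matched autosomal genes for developmental transcription factors, 71 flanked a desert and 65 a desert with at least 1 of the regions. Their 86 deserts held 1330 regions in 49.6 Mb, or 26.8 per Mb, against 18 in all deserts. Of 67 cadherin, protocadherin and other adhesion genes, 57 flanked a desert and 56 one with a region. Their 86 deserts held 1149 regions in 127 Mb, or 9.07 per Mb. For 32 axon guidance genes, 23 of 26 that flanked a desert had a region there (11.3 per Mb), and for 57 channel and receptor genes 38 of 43 (10.6 per Mb). Of 28 chemosensory receptor genes at a desert, 4 had a region there (9.74 per Mb). Over all protein-coding genes, 1856 of 2360 did. These counts carry no test, and a desert with genes of 2 lists counts under both.

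Desert size differs between the lists, with medians of 0.384 Mb for the transcription factors and 1.09 Mb for the adhesion genes. In deserts of up to 0.5 Mb the densities were 42.4 per Mb beside transcription factors, 28 beside adhesion genes and 29.4 in all. Within deserts of 0.5 to 1 Mb they were 32.2 per Mb beside transcription factors, 9.03 beside adhesion genes and 22.4 in all. The adhesion value rests on which genes are listed. With both lists widened to whole gene families, chosen after seeing the data, it was 15.1 per Mb and that beside transcription factors 32.6. Widening took this adhesion class from 17 deserts with 106 regions to 18 deserts with 188. The desert from Cdh26 to 4930591A17Rik held 82 of them, and the median of the widened class was 7.13 per Mb. In deserts of 1 to 2 Mb the densities for the lists as written were 24.7, 10.1 and 14.3. In deserts of over 2 Mb the order was different, with 8.95, 7.72 and 6.94. Among deserts of 0.5 Mb or more the median density was 16.9 per Mb beside transcription factors (35 deserts, range 2.21 to 86.7) and 7.39 beside adhesion genes (61 deserts, range 1.05 to 36.2), so the ranges overlap.

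**Figure D4:**
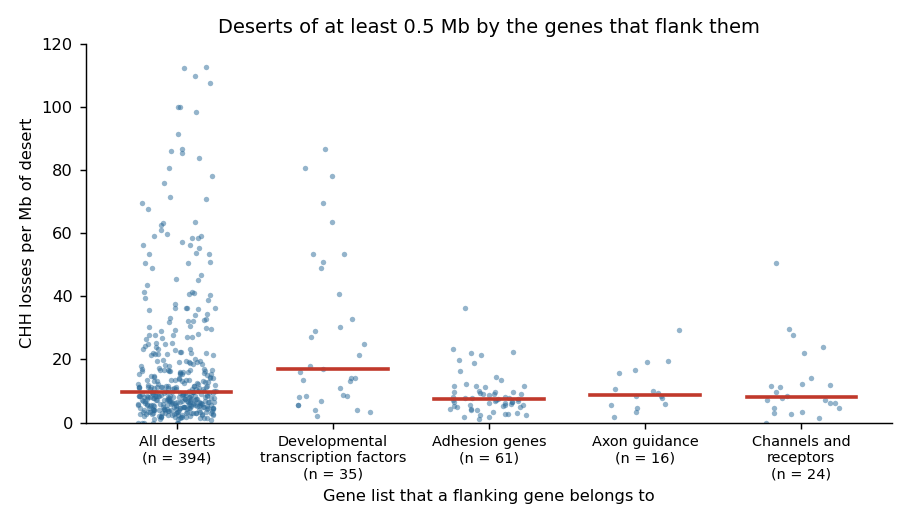
Density of CHH losses (y axis, regions per Mb) in deserts of at least 0.5 Mb, grouped on the x axis by the list to which a flanking gene belongs; points are deserts and red lines medians. The median is 16.9 beside developmental transcription factors, 7.39 beside adhesion genes and 9.68 over all 394 deserts, and the groups overlap. The lists were chosen with earlier results of these data known.

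Named deserts show this spread. Beside the listed transcription factors the densest of at least 0.5 Mb were those from Sall1 to Tox3 (86.7 per Mb), from Med13l to Tbx3, a T-box factor of limb and heart (80.8), from Zfp516 to Tshz1 (78.1), from Sall3 to Galr1 (69.7) and from Ebf1, a factor of B cell and striatal neuron development, to Clint1 (63.7). The sparsest lay from Hnf4g to Zfhx4 (2.21), from Zic4 to Plscr5 (3.35) and from Pou3f2, a factor of cortical neurons, to Mms22l (3.87). Pou3f1, which is not in the list, borders a denser one, from Rragc to Pou3f1 (99.9). Beside the listed adhesion genes the densest reached 36.2 per Mb, from Cntnap4 to Mon1b, followed by 23.3 between Cdh11 and Cdh5. Of cadherin genes outside the list, Cdh26 borders a denser desert, from Cdh26 to 4930591A17Rik (113). The deserts from Adam34l to Fat1 (35.9) and from Fat4 to Intu (32.6) lay between 23.3 and 36.2. Sparse ones were those from Gm52259 to Cadm2 (1.84), from Cdh7 to Cdh19 (1.84) and from Cdh2 to Dsc3 (2.37). Among axon guidance genes the desert from Pard3 to Nrp1, a semaphorin receptor, held 29.3 per Mb, and the one from Manea to Epha7, an ephrin receptor, 1.77. Among receptor genes the desert from Nmur2 to Gria1 held 50.6 per Mb and the one from Gask1b to Gria2 held 0, although both genes encode AMPA receptor subunits.

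Desert regions stood near CG losses somewhat less often than CHH losses near or inside genes did. The rule did not use the CG context, but it was measured in the same libraries. Of the 11839 regions, 5757 had a CG loss within 10 kb (48.6%, 95% exact binomial interval 47.7% to 49.5%). The share over all autosomal CHH losses below the ceiling was 55.6%, with 57.8% for those within 100 kb of genes and 59.0% for those inside genes. A CG loss overlapped 573 of the desert regions (4.84%) and lay within 1 kb of 2312 (19.5%). The matching shares were 5.30% and 21.5% near genes, 6.86% and 24.2% inside genes and 5.56% and 21.6% over all. A CG region higher in cKO lay within 10 kb of 37 (0.313%), against 0.455% over all. The intervals cover the counting of regions only, and the density of CG losses, which is lower far from genes, moves with these shares; its part in them was not tested. Conversely, 5532 of the 10310 desert CG losses (53.7%) had one of the CHH regions within 10 kb.

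**Figure D5:**
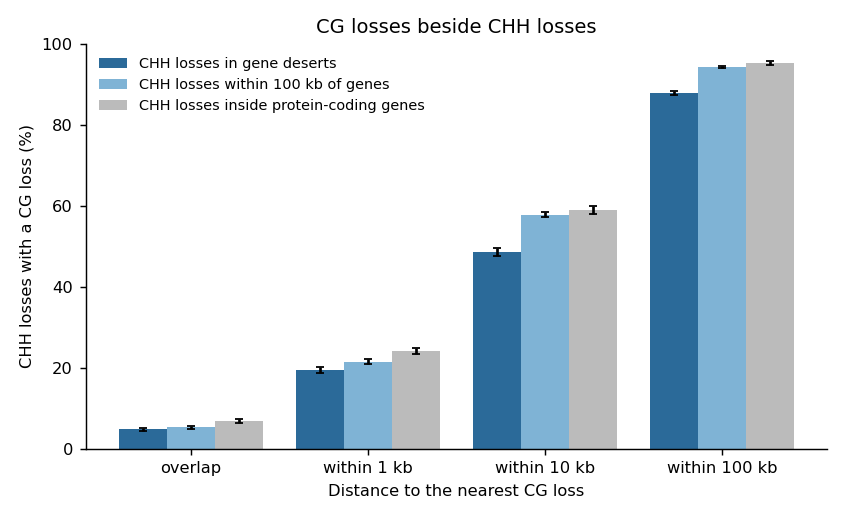
Share of CHH losses (y axis, percent) with a CG loss at a given distance (x axis), for desert, near-gene and genic CHH losses with a control below 10%; bars are 95% exact binomial intervals over regions. The desert share is 48.6% within 10 kb against 57.8% and 59.0% in the other classes.

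The CG losses that overlap a desert CHH region had medians of 77.5% in Ctrl and 40.1% in cKO (543 CG regions, median length 280 bp, 12 CpGs). The other desert CG losses had 76.4% and 41.9% (9767 regions, 125 bp, 8 CpGs). The CHH regions that overlap a CG loss were longer than the rest, at a median of 180 bp against 119. A longer region has more room to overlap another, so nothing is read from the lengths in either context. The levels of these CHH regions were similar (5.23% in Ctrl and 0.875% in cKO, against 5.46% and 0.975%). Across the 394 deserts of 0.5 Mb or more, the densities of CHH and CG losses varied together, with a Spearman's rho of 0.664, a description of deserts measured in the same libraries. A CHG loss lay within 1 kb of 49 of the CHH regions (0.414%), against 0.551% of those near genes and 0.626% of those inside genes. No CHG gain did so in the deserts.

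The regions with the largest area statistic, a score in the authors' deposited table that sums over cytosines, were long. The first lay between Nphp4 and Ajap1, 303 kb from Ajap1 (chromosome 4, 153069504 to 153070318, 307 cytosines), at 7.01% in Ctrl and 0.936% in cKO. A CG loss 0.232 kb away had 66.5% in Ctrl and 44.0% in cKO. The second lay 148 kb from Tex29 (chromosome 8, 12003522 to 12004127, 208 cytosines), at 8.89% and 1.34%, over a CG loss from 77.7% to 40.8%. The third lay 684 kb from Sall3 (chromosome 18, 81671251 to 81671934, 241 cytosines), at 5.45% and 0.956%, over a CG loss from 72.3% to 41.6%. One lay 114 kb from Zc3h12a, an RNase of inflammation (chromosome 4, 125241890 to 125242467), at 6.05% and 0.781%, over a CG loss from 78.1% to 32.2%. Another, between Mki67 and Mgmt (chromosome 7, 136083113 to 136083756), was at 5.17% and 0.669% inside a CG loss of 42 CpGs that went from 75.3% to 31%.

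The other 5 of the first 10 overlapped no CG loss. They lay between Fgf9 and 1700129C05Rik (6.13% in Ctrl, 1.10% in cKO), between Ddx18 and Dpp10 (6.65%, 1.26%), between Zfp608 and Gramd3 (4.88%, 0.822%), next to Vstm2b (9.97%, 1.78%) and between Meis2 and Tmco5 (5.24%, 0.697%). The nearest CG loss was 0.132 kb from the Fgf9 region, 0.141 kb from the Zfp608 region and 7.81 kb from the Vstm2b region. For those beside Dpp10 and Meis2 it was 68.6 kb and 44.5 kb away. In all, 8 of these 10 regions had a CG loss within 10 kb, against 48.6% of all the desert regions. By number of cytosines, the first 5 regions were 4 of the same 10 and a region between Med13l and Tbx3 with 223 cytosines, at 4.72% in Ctrl and 0.743% in cKO.

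The largest losses all came from regions just under the control ceiling. They lay 221 kb from Zfp507 (9.93% in Ctrl, 0.361% in cKO), 1666 kb from Slc39a10 (9.95%, 0.432%), 316 kb from Mcph1 (9.94%, 0.630%), 733 kb from Pdha2 (9.94%, 0.719%) and 134 kb from Abhd5 (9.89%, 0.791%).

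Regions also came in close runs. The median gap between neighbours in a desert was 14.2 kb (quartiles 3.86 and 41.7). Joining regions less than 1 kb apart gave 10650 separate places, of which 985 held more than 1 region, 2174 regions in all (18.4%). Only 7 places held 5 or more. The one with the most regions, 7 in 3.09 kb (chromosome 15, 88288980 to 88292066), lay in the long noncoding RNA gene 4930445N06Rik between Tafa5 and Zdhhc25. Its regions had Ctrl means of 4.06%, 5.92%, 4.06%, 5.22%, 6.75%, 8.85% and 5.47% in genome order, against 0.853%, 0.815%, 0.457%, 1.01%, 1.52%, 2.49% and 1.15% in cKO. The rule fixed that all 7 were lower, and the regions were listed for their difference. Nothing is therefore read from the gap between the 2 sets of levels.

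A run of 5 regions with 467 cytosines lay between Shh, the ligand of the Hedgehog pathway, and Rnf32 (chromosome 5, 28875238 to 28877351, 315 to 317 kb from Rnf32). Its Ctrl means were 7.04%, 4.70%, 4.20%, 5.39% and 7.01%, against 1.39%, 0.530%, 0.432%, 0.618% and 1.48% in cKO. CG losses in it went from 69.1% to 29.8% and from 58.2% to 26.9%. A run between Sp4 and Sp8, a pair of zinc finger factors, lay 103 to 105 kb from Sp4 (chromosome 12, 118404487 to 118406883). There Ctrl means were 4.02% to 6.06% and cKO means 0.536% to 1.22%, and 3 of the 5 regions overlapped a CG loss. The other runs of 5 lay between Zfp608 and Gramd3 (Ctrl 4.88% to 8.82%), Prkd1 and G2e3 (5.07% to 8.56%), Gm47655 and Ice1 (4.82% to 6.13%) and Nox3 and Arid1b (2.89% to 6.58%). All 37 regions in these 7 runs had a CG loss within 10 kb, against 48.6% of all the desert regions. The regions of a run lie close together and can share a CG loss, so these are 7 places, picked after their values were seen.

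Most of the regions lay in no annotated gene of any kind. A RefSeq gene that does not code for protein overlapped 1807 of them (15.3%, 95% exact binomial interval 14.6% to 15.9%), and such genes cover 12.7% of the desert sequence. Long noncoding RNA genes made up nearly all of these, with 1716 regions. Pseudogenes held 38 and microRNA genes 2. The interval for the 15.3% covers the counting of regions only, although neighbouring regions often lie in the same gene. The 12.7% is not matched for distance from protein-coding genes, and the difference between the 2 shares was not tested. The Mir1187 hairpin was touched by a region at 4.39% in Ctrl and 0.471% in cKO. After the Tcra and Igk loci, the noncoding genes with the most were A930027H12Rik (20, beside Tafa5), D130009I18Rik (20), Morrbid (18), 4930445N06Rik (16) and Gm20757 (16). Morrbid, a long noncoding RNA that controls the death gene Bcl2l11 in myeloid cells, had Ctrl means of 4.67% to 9.39% and cKO means of 0.199% to 2.97%. In D130009I18Rik the Ctrl means were 3.47% to 7.59% and the cKO means 0.408% to 2.15%.

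Regions just inside and outside each limit of the rule had the following levels. The nearest regions beyond 100 kb were 100.005 kb from Sst (4.84% in Ctrl, 0.886% in cKO), 100.044 kb from Ppargc1a (5.76%, 1.15%) and 100.059 kb from Gm525 (6.02%, 0.277%). Those just too near lay 99.994 kb from A1bg (3.59%, 0.456%), 99.992 kb from Ahi1 (7.25%, 1.57%) and 99.987 kb from Elac2 (3.83%, 0.747%). Just under the ceiling were regions between Irx3 and Irx5, homeobox factors (9.9993% in Ctrl, 3.28% in cKO), next to Uaca (9.9982%, 1.37%) and next to Map3k1 (9.9954%, 2.46%). Just over it were regions near Med13l (10.005%, 2.41%), Inhba (10.0098%, 3.93%) and Tle3 (10.013%, 1.70%). The smallest losses were near N6amt1 (2.24%, 0.239%), Trim36 (2.41%, 0.403%) and Klf5 (2.57%, 0.542%). The smallest desert gains with a control below 10% were near Slc4a10 (0.295% in Ctrl, 2.39% in cKO), Arpp21 (0.614%, 3.07%) and Slitrk1 (0.288%, 2.79%).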

How the data were processed

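Per the labels' protocols, CTAB-extracted DNA was fragmented and bisulfite-treated before PCR amplification. CASAVA, Bowtie2 and mm10 appear in the submitters' processing notes with no role stated. Not given in the sources used here are the region caller, its thresholds and how it treated replicates. The authors' deposited table holds, for each group, a region's mean level as a fraction, printed here as a percent. The signed difference (cKO minus control) and the area statistic were deposited as scores, beside the length and the number of cytosines. Lengths and differences matched positions and levels in all 101350 regions (within 1e-09).

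RefSeq gene coordinates (GRCm38.p6) were used, leaving out genes that end in the first 3 Mb of a chromosome (20556 autosomal protein-coding genes; 46710 of any kind). Distance ran from region end to gene end. A desert was a gap over 200 kb between such genes, trimmed by 100 kb on each side, or a chromosome end. Chromosomes were taken to end at their last region or gene. Medians, shares with 95% exact (Clopper-Pearson) intervals and densities were computed with Python 3.11.15, pandas 2.3.3 and scipy 1.17.1, and the placement steps were tested on simulated data. No test was run, since the table has no value per library.

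Named were the 10 deserts with most members, the 5 densest with at least 10, and by single region the 10 largest by area statistic, the 5 largest losses, the 5 farthest, the 5 with most cytosines and the 3 nearest each threshold. Members and the 5 gene lists were chosen with earlier results of these data known. Deserts at either end of a list or with few members, runs and noncoding genes were chosen after their values were seen. Composition of desert sequence was planned but no genome was used here, so promoter windows stand in. Some deserts that the naming rule or the ends of a list would give are not reported here.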

Additional observations from a re-analysis of the deposited data

How the results depend on the processing

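Other settings moved counts and shares but left every region lower in cKO, since the rule fixes that. The 11839 regions became 6680 beyond 200 kb, 2160 beyond 100 kb of any RefSeq gene, 4556 under a control ceiling of 5% and 5648 with an area statistic above the CHH median. Only 1527 had a loss above the mitochondrial median, a setting added after seeing the data, and 49.1% of these had a CG loss within 10 kb. The control median went to 5.92% above the median area statistic and 5.93% with at least 50 cytosines, and the cKO median to 0.998% and 1.01%, and to 0.947% beyond 200 kb. The share with a CG loss was 4.84% by overlap, 19.5% within 1 kb and 87.9% within 100 kb, and 32.5% within 10 kb of CG regions above their median area statistic. The other 14 of 28 values moved less: counts by at most 1.5 times, medians and shares within their intervals. Among them were 17076 regions beyond 50 kb, 12238 without predicted gene models, and 6 chemosensory genes in place of 4. Beside transcription factors and adhesion genes there were 27.5 and 9.77 regions per Mb without predicted models, and 27.9 and 10.1 with the lists widened to whole gene families, a setting added after seeing the data. The composition of desert sequence and leaving out single libraries could not be run, the latter because only group means are given. No paired analysis was possible because the table gives 1 mean per group.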
